A study of Solanum lycopersicum with 84 samples.

Results

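The embryo was compared with the endosperm in tomato seeds taken from over-ripe fruit, a stage reached after the red fruit was left on the plant. Members were chosen by label: the 12 libraries of 84 in all that the sample titles assign to embryo or endosperm at R7 or R14. There were 6 embryo libraries and 6 endosperm libraries, 3 of each tissue at R7, which is 83 days after flowering (DAF), and 3 of each at R14, which is 90 DAF. The plants were cv. Moneymaker grown in a greenhouse, with no mutant allele and no applied treatment in any group. The embryo and the endosperm were separated by hand from freshly harvested seeds, several seeds were pooled for each RNA sample, and the 3 samples of a group are biological replicates. The RNA kit was run at a different setting for the embryo and for the endosperm, so that a difference between tissues and a difference between the settings cannot be told apart. All 33976 genes of the count table were available for each library.

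In the tomato seed a curved embryo lies within a living endosperm, whose cell walls store mannan and whose cap faces the root tip. Both tissues are filled with storage protein and oil during maturation, while the embryo carries the meristems and leaf primordia of the seedling and the endosperm restrains germination mechanically. Abscisic acid and gibberellin, with the DELLA proteins that repress the gibberellin response, set whether a mature seed germinates. DOG1, ABI3, ABI4, ABI5 and FUS3 are regulators of maturation, dormancy or abscisic acid response, known mainly from Arabidopsis.

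Library totals ranged from 20904826 to 21302093 counts in embryos and from 20716959 to 21329172 counts in endosperms. Levels are given in CPM, the counts of a gene relative to the library total and not divided by gene length, and 3 counts, the lowest level treated as detectable, corresponded to 0.141 to 0.145 CPM. Limits set from counts cover counting error only. In bulk tissue, fewer cells of a type and less RNA per cell cannot be told apart. A list of 24 genes at least 10 times higher in embryos than in other tissues at 35 to 49 DAF summed to 3582, 4129 and 4521 CPM in over-ripe embryos (lowest, median and highest library), against 67, 82.4 and 272.8 CPM in endosperms. A list of 81 genes chosen in the same way for the endosperm summed to 148.9, 284.1 and 311.3 CPM in embryos, against 19320, 20950 and 32360 CPM in endosperms. This sum includes Solyc01g090350.3.1, which took the largest share of counts of any gene higher in endosperms. Of 80 genes of the list tested, 78 were called higher in endosperms and 0 higher in embryos. Both tissue labels were thus borne out by markers taken from earlier stages, with no overlap in either sum. Endosperm R14 replicate 3 was the endosperm library highest in embryo markers, at 6.61% of the embryo median compared with 1.62 to 2.40% in the other 5, and also the highest in endosperm markers. Of 2 named seed coat MADS-box genes, none reached 1 CPM in any of the 12 libraries. A list of 400 genes marking the seed coat at 35 to 49 DAF, of which 215 were tested, summed to 427.2, 592 and 1372 CPM in embryos, against 854.8, 896.7 and 1332 CPM in endosperms, with 47 members called higher in embryos and 70 higher in endosperms. Among 6 fruit flesh genes the sums were 3.88, 14.7 and 24.2 CPM in embryos, against 73.5, 99.5 and 124.7 CPM in endosperms, with 3 members tested and 2 of them called higher in endosperms. Of all genes tested, 16.4% were called higher in embryos and 18.0% higher in endosperms, with calls as defined below. The part of seed coat and fruit flesh RNA in the results below was not tested. Nor was the part of embryo RNA in endosperm libraries or of endosperm RNA in embryo libraries.

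**Figure D1:**
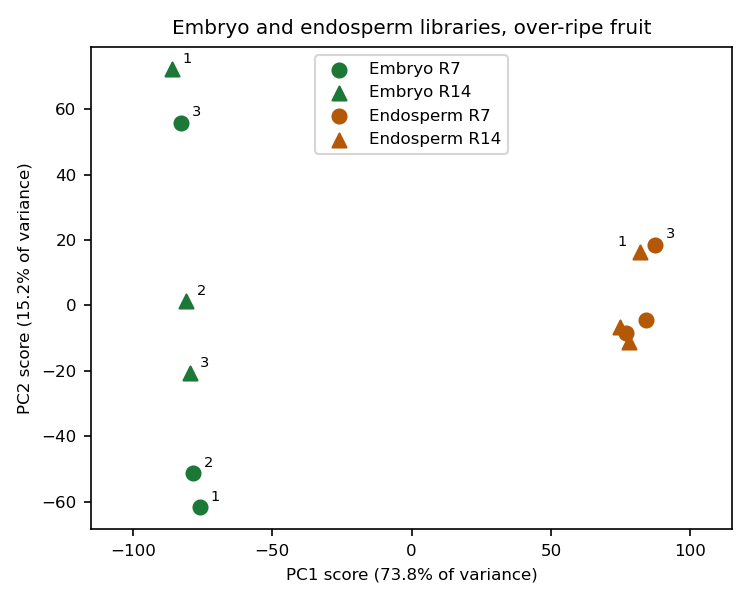
Principal component scores of the 6 embryo libraries (green) and 6 endosperm libraries (orange), with R7 as circles and R14 as triangles and replicate numbers beside most points. The tissues separate on the first component (73.8% of variance), and Embryo R14 replicate 1 and Embryo R7 replicate 3 lie above the other embryo libraries on the second (15.2%).

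In the principal component plot, the first component held 73.8% of the variance and separated embryos, at -85.9 to -76.1, from endosperms, at 74.8 to 87.4. On the second component, with 15.2%, Embryo R14 replicate 1 (72.3) and Embryo R7 replicate 3 (55.9) stood apart from the other 4 embryo libraries (-61.7 to 1.23). These 2 libraries had 17147 and 17142 genes over 1 CPM, compared with 15176 to 16415 in the other 4. For 1841 genes both lay above the other 4 embryo libraries with means more than 1 log2 unit apart, and for 103 genes they lay below in the same way. They were also the embryo libraries highest in seed coat markers, at 1372 and 1221 CPM compared with 427.2 to 646.7 CPM in the other 4. They were highest in fruit flesh genes as well, at 24.2 and 19.3 CPM. The endosperm libraries with the same numbers, Endosperm R14 replicate 1 and Endosperm R7 replicate 3, lay at 16.2 and 18.6 on the second component, compared with -11.2 to -4.34 in the other 4. They held 1332 and 1302 CPM of seed coat markers, compared with 854.8 to 904.5 CPM. The part of these markers in the separation of the libraries was not tested. The main counts, and several counts of gene groups, are also given without the 2 embryo libraries.

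Transcript levels differed between the tissues in both directions, with similar numbers of genes higher on each side and larger fold changes on the endosperm side. Of 19926 genes tested with edgeR's quasi-likelihood test, 6849 (34.4%) had a log2 fold change beyond 1 in either direction and a Benjamini-Hochberg adjusted p under 0.05, here termed called. Of these, 3264 (16.4%) were higher in embryos and 3585 (18.0%) were higher in endosperms. Without the 2 embryo libraries that stood apart, 7467 genes were called, 3036 higher in embryos and 4431 higher in endosperms. Without these and the endosperm libraries of the same numbers, 7099 were called, 2933 higher in embryos and 4166 higher in endosperms. The median size of the log2 fold change was 1.98 among genes called higher in embryos and 2.79 among those called higher in endosperms. Beyond a log2 fold change of 5 there were 465 genes higher in embryos and 1024 higher in endosperms. A further count gave 427 embryo-higher genes with 3 counts or fewer in each endosperm library, and 888 endosperm-higher genes with 3 counts or fewer in each embryo library. Fitted fold changes of such genes are not bounds. With each of them set to its bound from 3 counts per library, the median log2 fold changes were 1.93 among genes called higher in embryos and -2.41 among those called higher in endosperms, and 224 and 430 genes lay beyond 5. The genes called higher in embryos took 11.3 to 11.7% of all counts in embryo libraries and 3.16 to 3.42% in endosperm libraries. The genes called higher in endosperms took 3.11 to 3.78% in embryo libraries and 17.1 to 18.3% in endosperm libraries. For 5424 called genes (27.2% of those tested) no embryo library overlapped any endosperm library, 2350 higher in embryos and 3074 higher in endosperms, and over all tested genes, called or not, it was 8691 (43.6%).

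**Figure D2:**
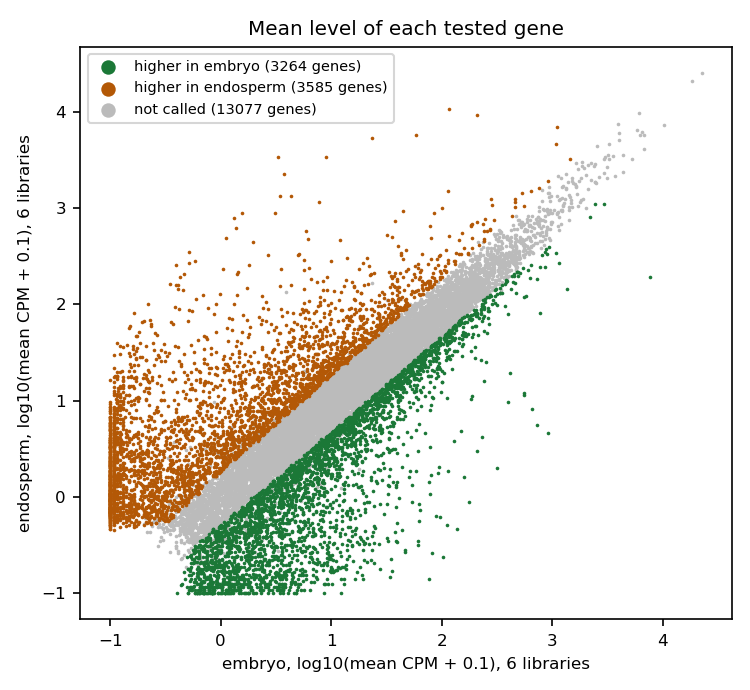
Mean CPM of each tested gene in 6 embryo libraries (x axis) and 6 endosperm libraries (y axis), as log10 of the mean plus 0.1, coloured by call: 3264 genes higher in embryos (green), 3585 higher in endosperms (orange) and the rest grey. The orange arm along the left edge, of genes near 0 in embryos, reaches higher levels than the green arm along the bottom.

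Several transcription factors named for the embryo were near 0 in endosperms. For each gene, 3 values for a tissue are its lowest, median and highest level in the 6 libraries, the log2 fold change is embryo over endosperm with its standard error from the fit, and adjusted p-values are those of edgeR over all 19926 genes. SlABI4-2 (Solyc03g095977.1.1), one of a pair of tomato counterparts of the AP2-type abscisic acid regulator ABI4, had 87.4, 98.1 and 107 CPM in embryos, against 0.143, 0.296 and 1.62 CPM in endosperms (log2 fold change 7.40 ± 0.47, edgeR adjusted p = 1.05e-07). SlABI4-1 (Solyc03g095973.1.1) had 24.9, 32.8 and 38.7 CPM in embryos, against 0, 0.163 and 0.686 CPM in endosperms (log2 fold change 6.74 ± 0.46, edgeR adjusted p = 1.85e-07). Neither gene overlapped between tissues, and every embryo library was more than 10 times above every endosperm library for both. The division of reads between such neighbouring copies was made by Salmon and was not examined here.

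KANADI2 (Solyc06g066340.4.1), of a family that specifies the abaxial side of leaves in Arabidopsis, had 10.2, 14.4 and 25.5 CPM in embryos, against 0.0483, 0.287 and 0.573 CPM in endosperms (log2 fold change 5.61 ± 0.44, edgeR adjusted p = 5.65e-07). GRF5 (Solyc07g041640.3.1), a growth-regulating factor, had 6.20, 18.3 and 30.4 CPM in embryos, against 0, 0 and 0.328 CPM in endosperms (log2 fold change 7.56 ± 0.69, edgeR adjusted p = 1.88e-06). Both were separated without overlap, and GRF5 was at 0 in the median endosperm library. The BEL1-like homeodomain gene BLH2 (Solyc04g079830.2.1) had 2.72, 11.9 and 14.5 CPM in embryos, against 0.0481, 0.143 and 0.241 CPM in endosperms (log2 fold change 5.89 ± 0.36, edgeR adjusted p = 7.51e-08). SlBLH4 (Solyc02g065490.4.1) was at 0 in all endosperm libraries and had 1.72, 3.71 and 4.58 CPM in embryos. Against the floor of 3 counts per library, SlBLH4 was at least 23.2-fold higher in embryos, and BLH8 (Solyc11g069890.3.1), with 0.716, 1.73 and 3.34 CPM in embryos, against 0, 0 and 0.0481 CPM in endosperms, at least 12.8-fold higher. NAC33 (Solyc12g017400.3.1) had 3.91, 6.64 and 11.6 CPM in embryos, against 0, 0.306 and 0.955 CPM in endosperms (log2 fold change 4.05 ± 0.58, edgeR adjusted p = 6.7e-05). SlABI4-1, SlABI4-2, KANADI2, GRF5, BLH2 and BLH8 were taken as markers of the embryo because the study names them for it. All were called higher in embryos. The study chose them on samples that include these, so that their calls are not independent evidence of a direction.

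Not each member of these families was confined to the embryo. GRF6 (Solyc08g083230.3.1) had 122, 155 and 205 CPM in embryos, against 49.1, 56.4 and 69.5 CPM in endosperms (log2 fold change 1.33 ± 0.10, edgeR adjusted p = 3.15e-07). GRF4 (Solyc08g005430.3.1) had 101, 110.2 and 144 CPM in embryos, against 41.7, 48.8 and 53.5 CPM in endosperms (log2 fold change 1.17 ± 0.09, edgeR adjusted p = 3.64e-07). Both GRF genes were thus well detected in endosperms and differed without overlap by little more than the threshold. Among maturation regulators, SlABI5 (Solyc09g009490.4.1), a bZIP factor of the abscisic acid response, had 166, 179 and 202 CPM in embryos, against 169, 192 and 208 CPM in endosperms, and its difference missed the threshold (log2 fold change -0.16 ± 0.10, edgeR adjusted p = 0.165). SlABI3-1 (Solyc06g083600.3.1) had 68.8, 89.5 and 129.8 CPM in embryos, against 114, 119 and 151 CPM in endosperms (log2 fold change -0.55 ± 0.11, edgeR adjusted p = 0.0011), which was under the size required for a call, and SlABI3-2 (Solyc06g083590.4.1) had a log2 fold change of 0.51 ± 0.40 (edgeR adjusted p = 0.281). A second bZIP gene described as ABI5-like (Solyc01g008980.3.1) had 27.4, 35.6 and 46.7 CPM in embryos, against 13.9, 16.9 and 19.4 CPM in endosperms (log2 fold change 1.06 ± 0.14, edgeR adjusted p = 5.07e-05), but fell under a log2 fold change of 1 without Embryo R7 replicate 1 (0.97) or without Embryo R7 replicate 2 (0.99). SlFUSCA3 (Solyc02g094460.2.1) was near the detection floor, with 0.382, 0.836 and 1.19 CPM in embryos, against 0, 0.0965 and 1.03 CPM in endosperms. Its groups overlapped and its call (log2 fold change 2.07 ± 0.78, edgeR adjusted p = 0.0357) was lost on leaving out any of 8 single libraries or R7 replicate 3 and R14 replicate 1 of both tissues, with adjusted p-values of 0.00197 to 0.0851 over all alternatives in edgeR and DESeq2.

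**Figure D3:**
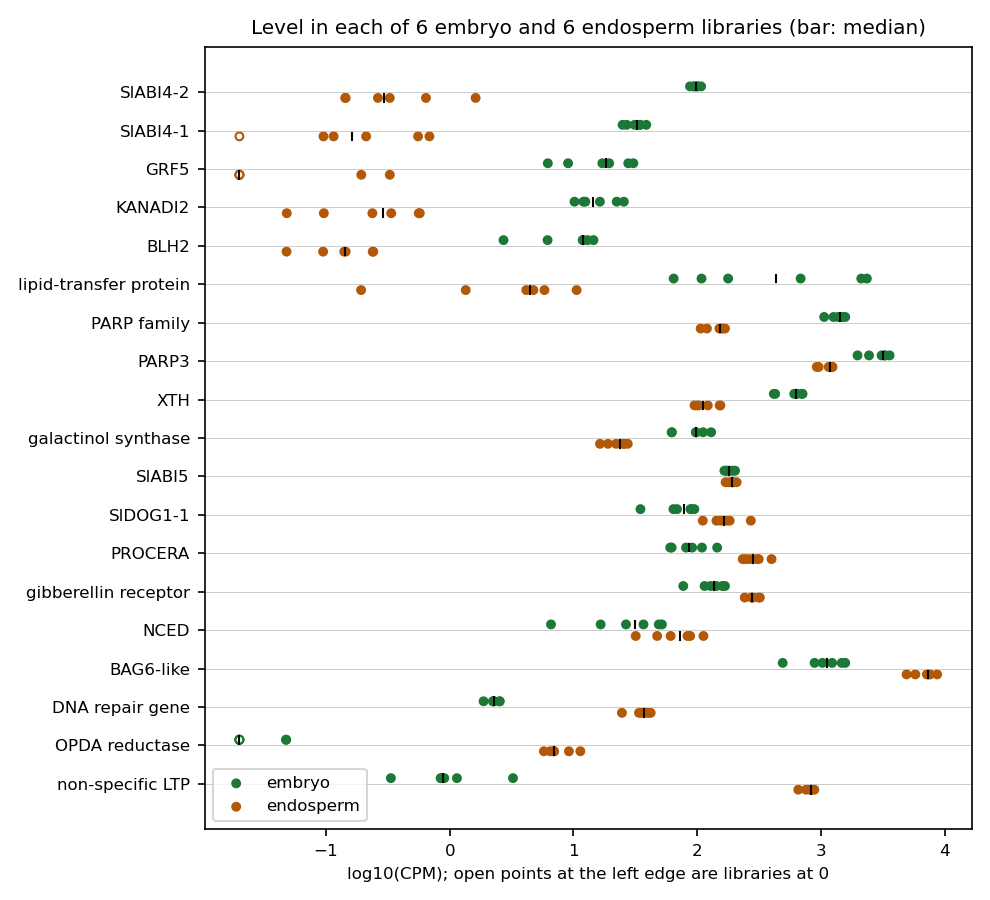
Level of 19 named genes in each of 6 embryo libraries (green, upper row of each gene) and 6 endosperm libraries (orange, lower row), as log10 CPM, with a bar at the median and open points at the left edge for libraries at 0. SlABI4-2 lies at 87.4 to 107 CPM in embryos and 0.143 to 1.62 CPM in endosperms, SlABI5 overlaps, and the non-specific lipid-transfer protein lies at 0.335 to 3.25 CPM in embryos and 654 to 883 CPM in endosperms.

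Genes without a symbol followed the same pattern in embryos, and their only annotation here is the Gene Ontology (GO) terms the study listed. Solyc07g018290.4.1, listed under cytokinin signalling and root meristem growth, had 269, 292 and 416 CPM in embryos, against 0.0962, 1.52 and 4.83 CPM in endosperms (log2 fold change 7.34 ± 0.61, edgeR adjusted p = 9.04e-07). Solyc08g079100.3.1, listed under abaxial cell fate, had 16.9, 25.7 and 33.0 CPM in embryos, against 0, 0.119 and 0.237 CPM in endosperms (log2 fold change 7.70 ± 0.40, edgeR adjusted p = 1.7e-08). Solyc08g076820.3.1, listed under guard cell fate and seed morphogenesis, had 11.5, 39.4 and 63.0 CPM in embryos, against 0, 0.217 and 0.609 CPM in endosperms (log2 fold change 7.19 ± 0.63, edgeR adjusted p = 1.4e-06). All of these were separated by more than 10-fold between the nearest libraries of the tissues. Solyc03g117230.1.1, listed under cytokinin and ethylene signalling, had 29.8, 40.2 and 53.4 CPM in embryos, against 0.525, 0.895 and 1.16 CPM in endosperms (log2 fold change 5.44 ± 0.21, edgeR adjusted p = 2.16e-09). SlTBL39 (Solyc03g006220.4.1), named by the study, had 2.10, 4.21 and 5.82 CPM in embryos, against 0, 0.0476 and 0.337 CPM in endosperms (log2 fold change 5.20 ± 0.63, edgeR adjusted p = 1.91e-05).

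Lipid-transfer proteins, small secreted proteins that bind lipids, moved to opposite sides. The lipid-transfer protein gene Solyc10g075050.2.1 had 64.4, 431 and 2343 CPM in embryos, against 0.192, 4.45 and 10.6 CPM in endosperms (log2 fold change 7.66 ± 1.17, edgeR adjusted p = 0.000115). Its groups did not overlap, but its spread within embryos was wide: the R7 libraries held 64.4, 108 and 2113 CPM and the R14 libraries 2343, 684 and 177 CPM in replicate order, with the highest in the 2 libraries that stood apart. Without those libraries its log2 fold change was 5.62. Solyc01g066910.3.1, described as a protein with a bifunctional inhibitor and lipid-transfer domain, had 1.86, 15.2 and 18.4 CPM in embryos, against 0, 0.0478 and 0.241 CPM in endosperms (log2 fold change 6.98 ± 0.73, edgeR adjusted p = 5.75e-06). On the endosperm side, the non-specific lipid-transfer protein gene Solyc01g081590.4.1 had 0.335, 0.881 and 3.25 CPM in embryos, against 654, 824 and 883 CPM in endosperms (log2 fold change -9.45 ± 0.47, edgeR adjusted p = 1.27e-08), with no overlap.

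The genes with the largest fold changes and the largest shares of counts mostly carried no annotation in the tables used here. Among the 20 genes at the ends of the fold change scale, 7 had any annotation. Solyc10g007960.1.1 had 2.10, 29.2 and 307 CPM in embryos, against 0, 0.120 and 0.469 CPM in endosperms, and Solyc06g048840.3.1, which took the largest share of counts of any gene higher in embryos, had 4918, 8529 and 8865 CPM in embryos, against 99.0, 151 and 474 CPM in endosperms (log2 fold change 5.29 ± 0.45, edgeR adjusted p = 1.03e-06). Solyc12g150120.1.1 was at 0 in every embryo library and at 13.7, 16.2 and 19.4 CPM in endosperms, at least 114-fold lower in embryos. Solyc09g015380.1.1, listed under regulation of protein phosphatase activity and the response to water deprivation, had 0, 0 and 0.0477 CPM in embryos, against 11.4, 22.6 and 61.4 CPM in endosperms, at least 206-fold lower in embryos. Solyc01g090350.3.1, which took the largest share of counts of any gene higher in endosperms, had 62.3, 123 and 154 CPM in embryos, against 8961, 10627 and 12890 CPM in endosperms (log2 fold change -6.63 ± 0.26, edgeR adjusted p = 2.43e-09).

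Genes of poly(ADP-ribose) polymerases were higher in embryos, and genes of a co-chaperone and of a peroxiredoxin were higher in endosperms. PARP3 (Solyc11g067250.3.1), a poly(ADP-ribose) polymerase of the kind that acts in DNA damage responses, had 1971, 3184 and 3579 CPM in embryos, against 923, 1171 and 1237 CPM in endosperms (log2 fold change 1.30 ± 0.18, edgeR adjusted p = 5.91e-05). A second gene described as a poly(ADP-ribose) polymerase (Solyc01g009470.2.1) had 1060, 1410 and 1568 CPM in embryos, against 106, 154 and 167 CPM in endosperms (log2 fold change 3.15 ± 0.17, edgeR adjusted p = 2.54e-08). The embryo was higher for both without overlap. The endosperm was higher for a BAG family co-chaperone similar to BAG6 (Solyc01g095320.4.1), which had 489.7, 1127 and 1567 CPM in embryos, against 4902, 7298 and 8660 CPM in endosperms (log2 fold change -2.74 ± 0.29, edgeR adjusted p = 7.22e-06). It was also higher for 1-Cys peroxiredoxin (Solyc03g096040.3.1), a seed antioxidant enzyme, with 914, 1580 and 1717 CPM in embryos, against 2849, 3228 and 3587 CPM in endosperms (log2 fold change -1.25 ± 0.17, edgeR adjusted p = 5.37e-05). Neither of these overlapped between tissues.

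Other genes were found by searching descriptions, which were held for 1818 of 33976 genes, mostly members of modules the study built on samples that include these, some chosen for rising in both tissues. Call shares among genes found in this way therefore partly follow from that choice and are mostly given as counts. Of 7 oleosins and oil body proteins, which coat the oil bodies of seeds, 1 was called higher in embryos and 1 higher in endosperms. That is 14.3% each way, against 23.7% and 23.0% of tested genes with any annotation. The oleosin gene Solyc03g119820.1.1 had 374, 481 and 547 CPM in embryos, against 120.1, 175 and 212 CPM in endosperms (log2 fold change 1.38 ± 0.17, edgeR adjusted p = 2.62e-05). The oleosin gene Solyc06g034040.1.1 had 601, 965 and 1111 CPM in embryos, against 1570, 1819 and 2737 CPM in endosperms (log2 fold change -1.15 ± 0.20, edgeR adjusted p = 0.000333), and without the 2 embryo libraries that stood apart its log2 fold change was -0.95, under the size for a call. So 2 genes of 1 family lay on opposite sides, each without overlap. Malate synthase (Solyc03g111140.3.1), an enzyme of the glyoxylate cycle that turns stored oil into carbohydrate, had 334, 519 and 1203 CPM in embryos, against 1159, 1403 and 2003 CPM in endosperms (log2 fold change -1.36 ± 0.28, edgeR adjusted p = 0.00103), and its groups overlapped. The 2 vicilin-like storage protein genes tested were not called, with log2 fold changes of -0.23 (Solyc02g085590.4.1) and -0.45 (Solyc09g065470.3.1). Galactinol synthase (GolS, Solyc01g079170.3.1), which makes the galactosyl donor for raffinose family sugars, had 62.1, 97.5 and 129 CPM in embryos, against 16.4, 23.8 and 27.4 CPM in endosperms (log2 fold change 1.94 ± 0.23, edgeR adjusted p = 1.44e-05), while the 1 gene found by the search for raffinose family enzymes had a log2 fold change of -0.82 and was not called.

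Among genes of gibberellin response and abscisic acid synthesis found by name or description, those called were higher in the endosperm, and they were few. PROCERA (Solyc11g011260.1.1), the tomato DELLA protein that represses gibberellin responses, had 60.5, 86.0 and 145 CPM in embryos, against 233, 284 and 398 CPM in endosperms (log2 fold change -1.79 ± 0.18, edgeR adjusted p = 4.5e-06). A gibberellin receptor gene (Solyc06g008870.2.1) had 77.0, 135 and 167 CPM in embryos, against 242, 278 and 320.3 CPM in endosperms (log2 fold change -1.22 ± 0.18, edgeR adjusted p = 7.71e-05). This repressor gene and this receptor gene were thus both higher in endosperms without overlap. The receptor gene's log2 fold change was -0.99 without the 2 embryo libraries that stood apart, just under the size for a call. It was the 1 gene found by the search for gibberellin oxidases, receptors and DELLA, so that other receptor genes were not covered. The gene for 9-cis-epoxycarotenoid dioxygenase (NCED, Solyc05g053530.1.1), the enzyme of the key cleavage step in abscisic acid synthesis, had 6.58, 31.6 and 51.8 CPM in embryos, against 31.8, 72.1 and 112 CPM in endosperms (log2 fold change -1.27 ± 0.43, edgeR adjusted p = 0.0212). Its groups overlapped, and its call was lost without those 2 libraries (log2 fold change -0.84) and without Endosperm R7 replicate 1. Its adjusted p-values were 7.79e-05 to 0.0605 over all alternatives in edgeR and DESeq2. The search for abscisic acid synthesis and breakdown returned 2 tested genes, with a median log2 fold change of -0.07. The gene beside NCED, Solyc03g031420.1.1, lay on the embryo side (log2 fold change 1.13) and was not called. The abscisic acid receptor gene PYL10 (Solyc01g095700.3.1) had 58.0, 73.4 and 90.5 CPM in embryos, against 20.1, 37.2 and 73.0 CPM in endosperms and was not called by size (log2 fold change 0.91 ± 0.18, edgeR adjusted p = 0.000719). It passed the threshold without Endosperm R7 replicate 3 (log2 fold change 1.04), without R7 replicate 3 and R14 replicate 1 of both tissues (1.16), and narrowly when no TMM factors were used.

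SlDOG1-1 (Solyc02g072570.2.1), a counterpart of the Arabidopsis dormancy gene DOG1, had 34.8, 78.3 and 94.7 CPM in embryos, against 111, 164 and 271 CPM in endosperms (log2 fold change -1.29 ± 0.23, edgeR adjusted p = 0.000407), with no overlap. Without R7 replicate 3 and R14 replicate 1 of both tissues its log2 fold change was -0.95, under the size for a call. SlDOG1-2 (Solyc03g006120.4.1) had 22.7, 36.8 and 54.8 CPM in embryos, against 26.5, 42.5 and 59.2 CPM in endosperms, and its groups overlapped (log2 fold change -0.22 ± 0.18, edgeR adjusted p = 0.306). SOMNUS (Solyc07g053750.1.1), a zinc finger gene whose Arabidopsis counterpart represses germination in the dark, had 353, 487 and 636 CPM in embryos, against 368, 827 and 1317 CPM in endosperms and was not called (log2 fold change -0.80 ± 0.28, edgeR adjusted p = 0.0255). Of the 40 genes the study names that were looked up, 37 were tested, 14 of them called higher in embryos and 6 higher in endosperms. The study chose these genes on these samples, so that their counts are not independent evidence of a direction. Of all genes tested, 16.4% were called higher in embryos and 18.0% higher in endosperms.

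Other transcripts higher in the endosperm included that of a 12-oxophytodienoate (OPDA) reductase, which was at or near 0 in embryos, and genes the study names for DNA repair. The study picked both kinds from its endosperm-specific module, built on samples that include these. Their direction is therefore not independent evidence. The OPDA reductase gene Solyc11g032230.3.1 had 0, 0 and 0.0477 CPM in embryos, against 5.77, 6.96 and 11.4 CPM in endosperms, at least 54.6-fold lower in embryos. Solyc01g105520.3.1 and Solyc01g109460.3.1 are named by the study for DNA repair. Solyc01g105520.3.1 had 1.88, 2.26 and 2.54 CPM in embryos, against 24.6, 36.9 and 42.0 CPM in endosperms (log2 fold change -4.06 ± 0.10, edgeR adjusted p = 2.98e-10). Solyc01g109460.3.1 had 0.764, 2.25 and 3.53 CPM in embryos, against 21.5, 30.6 and 57.8 CPM in endosperms (log2 fold change -3.98 ± 0.32, edgeR adjusted p = 7.45e-07). Solyc01g105530.3.1, also named for DNA repair and next to Solyc01g105520.3.1 in the identifier order, had 0.563, 0.810 and 1.14 CPM in embryos, against 8.58, 13.9 and 16.9 CPM in endosperms (log2 fold change -4.12 ± 0.22, edgeR adjusted p = 1.96e-08). None of these overlapped between tissues. Solyc09g014640.2.1, listed under negative regulation of seed germination and destabilization of mRNA, had 0, 0.0472 and 0.143 CPM in embryos, against 26.9, 31.6 and 37.8 CPM in endosperms, at least 220.4-fold lower in embryos. Solyc06g075990.4.1, with a glyoxalase-like domain, had 165, 249 and 307 CPM in embryos, against 668, 762 and 864 CPM in endosperms (log2 fold change -1.74 ± 0.16, edgeR adjusted p = 1.89e-06).

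Gene groups were read against the whole table, in which 16.4% of tested genes were called higher in embryos and 18.0% higher in endosperms, with a median log2 fold change of 0.03. Among the 2401 tested genes with any annotation the shares were 23.7% and 23.0%. A group's genes were taken from the GO terms that the study listed for its co-expression modules. Those modules were built on samples that include these, and only part of each list was held, so that no count for such a group is independent evidence of its direction. All 10 genes of root meristem growth were called higher in embryos (median log2 fold change 5.65), as were all 12 tested of adaxial/abaxial polarity (5.86) and all 15 of cytokinin signalling (5.88). These lists share members, SlABI4-1 and SlABI4-2 being among those of root meristem growth and KANADI2 among those of polarity. Of 11 genes for regulation of seed development, 9 were called higher in embryos and 2 higher in endosperms (5.88), and of 15 for ethylene signalling, 12 and 3 (5.09). Negative regulation of seed germination was split, with 12 of 18 genes higher in embryos and 6 higher in endosperms (3.47), and its endosperm members had a median log2 fold change of -9.20, or -7.12 with genes at 3 counts or fewer in embryos set to their bound. With the same bounds, the group medians were 5.51 for polarity, 5.22 for cytokinin signalling, 5.09 for seed development and 5.06 for ethylene signalling, and unchanged for root meristem growth and for negative regulation of germination as a whole. Across these 6 groups there were 46 distinct genes, 35 higher in embryos and 11 higher in endosperms. The counts for the 6 groups were the same without the 2 embryo libraries that stood apart.

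The group for double-strand break repair by homologous recombination was on the other side, with all 10 genes called higher in endosperms (median log2 fold change -6.71, or -4.50 with the 6 genes at 3 counts or fewer in embryos set to their bound). Of 42 tested genes for defense response to fungus, 29 were called higher in endosperms and 13 higher in embryos (-2.72). Within it, Solyc10g078190.2.1 had 11.3, 16.5 and 104 CPM in embryos, against 403, 508 and 578 CPM in endosperms (log2 fold change -4.23 ± 0.51, edgeR adjusted p = 1.79e-05), and Solyc03g025720.3.1 had 22.7, 33.1 and 43.3 CPM in embryos, against 175, 194 and 336 CPM in endosperms (log2 fold change -2.77 ± 0.23, edgeR adjusted p = 8.86e-07). Response to chitin had 12 of 20 genes higher in embryos and 8 higher in endosperms (2.33). In the endosperm part of the ethylene and chitin groups, Solyc06g063070.3.1 had 19.6, 36.3 and 94.3 CPM in embryos, against 153, 293 and 617 CPM in endosperms (log2 fold change -3.08 ± 0.41, edgeR adjusted p = 4e-05). The search for defence proteins in gene descriptions returned 6 tested genes, defensins, thionins and a proteinase inhibitor, of which 0 were called with edgeR and 0 with DESeq2, while 2 had an unadjusted p under 0.05 with edgeR. Without the 2 embryo libraries that stood apart, 2 of the 6 were called higher in embryos and 1 higher in endosperms.

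Response to abscisic acid had 17 of 36 tested genes higher in embryos and 10 higher in endosperms (median log2 fold change 0.90), and response to water deprivation 5 and 5 of 22 (-0.18). For abscisic acid the shares were 47.2% and 27.8%, against 23.7% and 23.0% of all genes with any annotation. Group members can come only from genes with a GO term. Across the 20 GO groups described, 83 of 250 distinct genes were called higher in embryos and 84 higher in endosperms. The counts were 17 and 11 of 35 for abscisic acid and 5 and 6 of 21 for water deprivation without the 2 embryo libraries that stood apart. The endosperm members of that group included Solyc01g009860.3.1, listed under abscisic acid homeostasis and leaf senescence, with 3.43, 10.0 and 14.0 CPM in embryos, against 143, 195 and 253 CPM in endosperms (log2 fold change -4.50 ± 0.33, edgeR adjusted p = 3.46e-07). Of 24 late embryogenesis abundant (LEA) protein and dehydrin genes, whose products protect cells against water loss, 3 were called higher in embryos, 1 was called higher in endosperms and 20 were not called (median 0.09). Seed maturation protein PM41 (Solyc03g046380.1.1) had 383, 655 and 854 CPM in embryos, against 106, 203 and 226 CPM in endosperms (log2 fold change 1.65 ± 0.24, edgeR adjusted p = 8.66e-05), and the D-34 type gene Solyc09g065360.4.1 had 3.85, 7.14 and 9.50 CPM in embryos, against 10.9, 17.1 and 22.2 CPM in endosperms (log2 fold change -1.40 ± 0.22, edgeR adjusted p = 0.000148). Neither of these overlapped between tissues.

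Of 11 small heat shock protein genes, chaperones that hold unfolded proteins, 4 were called higher in embryos and 1 higher in endosperms. The shares were 36.4% and 9.09%, against 23.7% and 23.0% of tested genes with any annotation. The class I gene Solyc02g093600.3.1 had 11.6, 55.9 and 72.6 CPM in embryos, against 1.43, 3.34 and 8.16 CPM in endosperms (log2 fold change 3.62 ± 0.53, edgeR adjusted p = 8.44e-05), with no overlap. The class II gene Solyc08g062437.1.1 had 176, 541 and 815 CPM in embryos, against 605, 1520 and 1723 CPM in endosperms (log2 fold change -1.52 ± 0.34, edgeR adjusted p = 0.00214), with an overlap that came from Endosperm R14 replicate 1, the lowest endosperm library. The other 3 embryo calls were less stable: Solyc05g014280.4.1 (1.57), Solyc03g082420.3.1 (1.40) and Solyc12g042830.3.1 (1.09) each overlapped between tissues and lost their call on leaving out single libraries, 5, 1 and 9 of the 12 in turn, among them Embryo R14 replicate 2 for all 3. Without Endosperm R14 replicate 3 the list had 2 genes higher in embryos and 1 higher in endosperms.

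**Figure D4:**
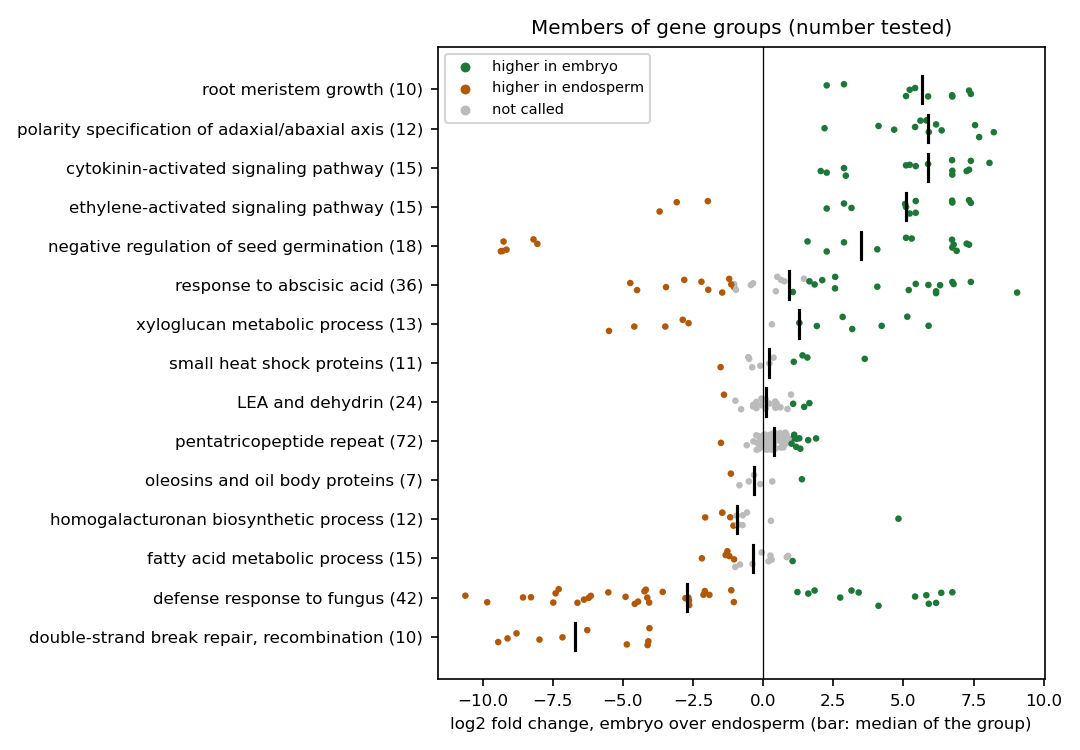
Log2 fold change of embryo over endosperm (x axis) for each tested member of 15 gene groups, coloured green for genes called higher in embryos, orange for genes called higher in endosperms and grey for the rest, with a bar at the group's median. Root meristem growth (10 genes, median 5.65) and double-strand break repair (10 genes, median -6.71) lie wholly on opposite sides, while LEA proteins (24 genes, median 0.09) lie around 0.

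Pentatricopeptide repeat proteins edit and process RNA in plastids and mitochondria. Of 72 of their genes tested, 10 were called higher in embryos, 1 was called higher in endosperms and 61 were not called. The shares were 13.9% and 1.39%, against 16.4% and 18.0% of all genes tested. The median log2 fold change was 0.39. The largest embryo member, Solyc04g025430.1.1, had 10.5, 13.8 and 16.8 CPM in embryos, against 3.05, 3.27 and 4.30 CPM in endosperms (log2 fold change 1.89 ± 0.17, edgeR adjusted p = 1.37e-06), and the endosperm member Solyc02g081930.3.1 had 0.762, 0.907 and 1.74 CPM in embryos, against 2.17, 2.80 and 4.04 CPM in endosperms (log2 fold change -1.51 ± 0.25, edgeR adjusted p = 0.000251). The groups for chloroplast RNA modification (9 of 32 higher in embryos) and mitochondrial mRNA modification (7 of 32) share 29 of their 35 genes. Without Endosperm R14 replicate 3 these counts were 6 and 4. Cotyledon vascular pattern formation had 7 of 20 genes higher in embryos (median log2 fold change 0.48), and 5 without that library.

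Called cell wall genes lay on both sides. The xyloglucan endotransglucosylase/hydrolase gene (XTH, Solyc07g006870.4.1), whose product rejoins wall polymers, had 416, 623 and 709 CPM in embryos, against 95.0, 112 and 154 CPM in endosperms (log2 fold change 2.13 ± 0.16, edgeR adjusted p = 4.68e-07), with no overlap. The search for wall-loosening enzymes returned 3 tested genes, 2 of them called higher in embryos. Xyloglucan metabolism had 7 of 13 genes higher in embryos and 5 higher in endosperms, and without the 2 embryo libraries that stood apart 4 and 5 of the 11 still tested. Homogalacturonan synthesis had 1 of 12 higher in embryos and 4 higher in endosperms, and without those libraries 1 and 8. Secondary wall biogenesis had 3 and 3 of 14, and without those libraries 2 and 7. With all libraries the shares were 53.8% and 38.5% for xyloglucan, 8.33% and 33.3% for homogalacturonan and 21.4% and 21.4% for secondary walls. Among tested genes with any annotation they were 23.7% and 23.0%.

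The sugar transporter SWEET gene Solyc04g064620.4.1, of a family that exports sugars from cells, had 14.6, 19.1 and 23.5 CPM in embryos, against 5.65, 6.79 and 12.1 CPM in endosperms (log2 fold change 1.27 ± 0.20, edgeR adjusted p = 0.000154), and it was 1 of 2 sugar transporters tested. Of 5 genes returned by the search for amino acid and peptide transporters, 2 were called higher in endosperms. Amino acid transporter 2 (Solyc06g060110.3.1) had 0.239, 2.65 and 6.30 CPM in embryos, against 3.19, 6.57 and 44.1 CPM in endosperms (log2 fold change -2.18 ± 0.77, edgeR adjusted p = 0.0264), where the groups overlapped and the call was lost without Endosperm R7 replicate 3 (log2 fold change -1.62). The NRT1/PTR family gene Solyc05g006010.4.1 had 3.94, 10.3 and 13.0 CPM in embryos, against 8.72, 22.6 and 35.7 CPM in endosperms (log2 fold change -1.17 ± 0.35, edgeR adjusted p = 0.0107), with an overlap between the groups, and -0.85 as log2 fold change without the 2 embryo libraries that stood apart. Amino acid transport had 1 and 3 of 12 genes higher in embryos and in endosperms, fatty acid metabolism 1 and 5 of 15, and male meiotic division 2 and 2 of 13. Without the 2 embryo libraries that stood apart, the counts were 1 and 5 for amino acid transport and 1 and 5 for male meiotic division, whose median log2 fold change was then -0.74, against 0.20 with all libraries. The remaining searches gave 3 of 4 patterning factors, 1 of 8 photosystem genes, 1 of 4 silencing genes and 1 of 3 ribosomal proteins (Solyc06g007360.3.1, 40S protein S4, log2 fold change 1.22) higher in embryos, and a log2 fold change of 0.40, not called, for the 1 cyclin or replication gene. When the 2 embryo libraries that stood apart were left out, 0 photosystem genes were called higher in embryos and 1 higher in endosperms. In all, 158 genes of 18 searches were tested, 28 higher in embryos and 8 higher in endosperms (31 and 6 without those 2 libraries). Of all genes tested, 16.4% were called higher in embryos and 18.0% higher in endosperms. A further 6 searches found no tested gene.

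Most genes called at one over-ripe stage were called at the other. At R7, 6185 genes (31.0%) were called, 2752 higher in embryos and 3433 higher in endosperms, and at R14, 6096 (30.6%), 2828 and 3268. When the 2 embryo libraries that stood apart were left out, 7640 genes were called at R7, 2863 higher in embryos and 4777 higher in endosperms, and 6812 at R14, 2966 and 3846. Without Embryo R7 replicate 3 alone, the R7 counts were 2732 and 4601. A total of 5093 genes were called at both, all in the same direction. They made up 82.3% of the R7 calls and 83.5% of the R14 calls. Of the 6849 genes called over both stages, 6847 had the same sign at R7 and at R14. A test of the change in the difference from R7 to R14 called 0 of 19926 genes with edgeR (0%), although 560 had an unadjusted p under 0.05, and DESeq2 called 1. Of the 2 embryo libraries that stood apart, 1 was at each stage. Without both, 45 genes were called, 43 of them with a difference that shifted towards the embryo at R14, and 3405 had an unadjusted p under 0.05. That fit keeps the endosperm libraries with the same numbers. Without R7 replicate 3 and R14 replicate 1 of both tissues, which leaves 2 libraries in each group, 16 genes were called, 15 of them towards the embryo, and 3041 had an unadjusted p under 0.05. Without Embryo R7 replicate 3 alone, 3 genes were called.

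Single libraries accounted for some of the largest nominal changes between R7 and R14. For Solyc03g121180.4.1 the log2 fold change was -0.98 at R14 and 6.14 at R7. At R14 the embryo libraries held 82.2, 69.5 and 121 CPM, against 0.143, 1.54 and 463 CPM in endosperms, where only replicate 3 was high. At R7 the values were 97.8, 129 and 158 CPM in embryos, against 2.23, 1.78 and 1.16 CPM in endosperms. Solyc06g073570.4.1, listed under sideretin (coumarin) synthesis, held 26.0, 4.81 and 0 CPM in embryos at R14 and 0, 0 and 7.30 CPM at R7, and it was at or near 0 in endosperms, so that its level in embryos came from Embryo R14 replicates 1 and 2 and Embryo R7 replicate 3.

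Relative to mature green (MG) fruit, the difference between the tissues had changed for part of the genes. A fit of over-ripe, MG and red (R) libraries, 24 in all, tested 20727 genes for a change of the embryo-endosperm difference. Against MG, 1582 genes (7.63%) were called, 745 (3.59%) shifted towards the embryo and 837 (4.04%) towards the endosperm. Of the 745, the embryo moved more than the endosperm and rose in 528, and the endosperm moved more and fell in 212. Of the 837, the endosperm moved more and rose in 520, and the embryo moved more and fell in 313. Among the 745, 349 were called higher in over-ripe embryos, and among the 837, 492 were called higher in over-ripe endosperms. Without the 2 embryo libraries that stood apart the counts were 740 towards the embryo and 1137 towards the endosperm, and without those replicates of both tissues 631 and 1036. Against R, 0 genes were called with edgeR (0%), with 1512 at an unadjusted p under 0.05, while DESeq2 called 53 and a fit with the replicate block 4. Without the 2 embryo libraries that stood apart it was 33, without those replicates of both tissues 14, without Embryo R7 replicate 3 alone 8, and without Embryo R replicate 1 or Endosperm R7 replicate 1 alone 1 each.

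**Figure D5:**
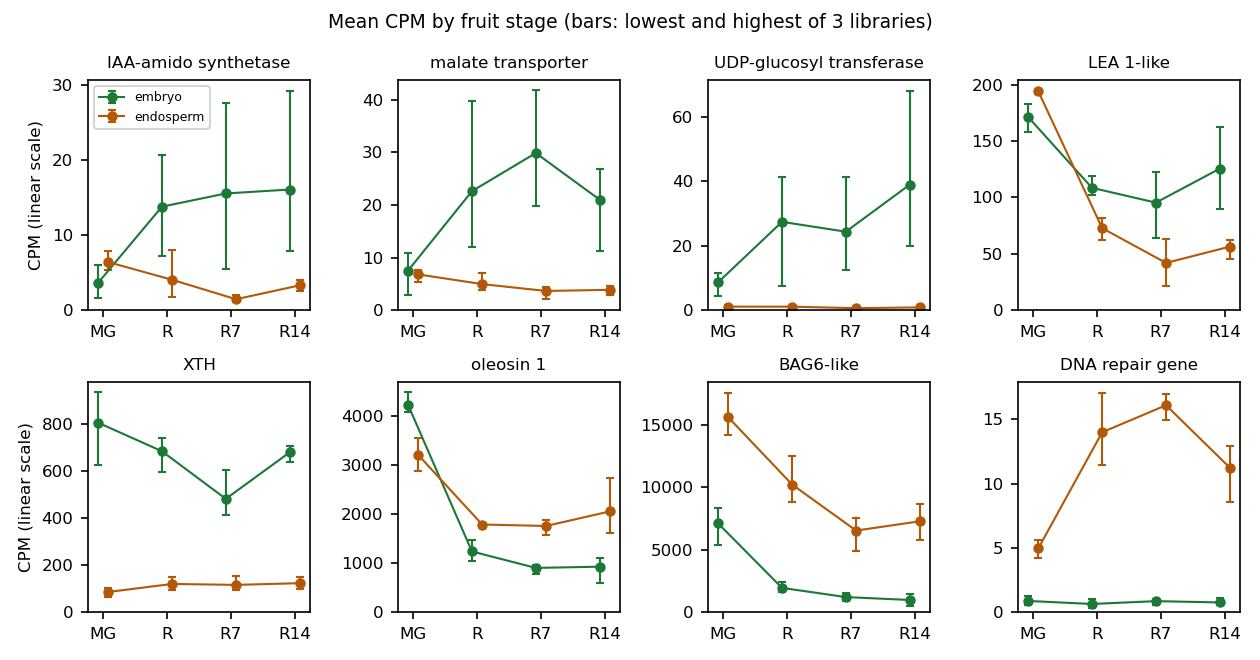
Mean CPM of 8 genes in embryos (green) and endosperms (orange) at the MG, R, R7 and R14 stages, with bars from the lowest to the highest of 3 libraries and a linear axis from 0. The IAA-amido synthetase, the malate transporter and the LEA 1-like gene shift towards the embryo after MG, and XTH, oleosin, the BAG6-like gene and the DNA repair gene shift towards the endosperm.

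Shifts towards the embryo came from rises in embryos, falls in endosperms or both. An IAA-amido synthetase gene (Solyc02g092820.4.1), of the GH3 family that conjugates auxin to amino acids, had 3.63 ± 2.25, 13.8 ± 6.74, 15.5 ± 11.2 and 16.1 ± 11.5 CPM in embryos at MG, R, R7 and R14, against 6.39 ± 1.32, 4.04 ± 3.44, 1.45 ± 0.496 and 3.31 ± 0.760 CPM in endosperms (SD, n = 3 each). Its log2 difference shifted by 3.53 ± 0.80 in over-ripe fruit against MG (edgeR adjusted p = 0.00545), and by 3.40 without the 2 embryo libraries that stood apart. An aluminium-activated malate transporter gene (Solyc06g061100.4.1) had 7.53 ± 4.18, 22.6 ± 15.1, 29.9 ± 11.1 and 21.0 ± 8.53 CPM in embryos, against 6.80 ± 1.24, 4.96 ± 1.76, 3.65 ± 1.25 and 3.87 ± 0.833 CPM in endosperms (SD, n = 3 each), a shift of 2.57 ± 0.62 (edgeR adjusted p = 0.00848). At MG the libraries of the tissues overlapped for both genes, and at R7 and R14 each embryo library was above each endosperm library. The LEA 1-like gene Solyc07g062990.2.1 had 171 ± 12.8, 109 ± 9.45, 95.4 ± 29.8 and 126 ± 36.3 CPM in embryos, against 194 ± 2.05, 72.7 ± 10.0, 41.9 ± 21.1 and 56.4 ± 9.45 CPM in endosperms (SD, n = 3 each), a shift of 1.28 ± 0.40 (edgeR adjusted p = 0.0347). That call was lost on leaving out any single library of MG, Embryo R14 replicate 2 or Embryo R7 replicate 1, with adjusted p-values of 0.00118 to 0.0851 over all alternatives in edgeR and DESeq2. A UDP-glucosyl transferase gene (Solyc05g053120.1.1) shifted by 2.34 ± 0.72 (edgeR adjusted p = 0.0333), by 1.77 without the 2 embryo libraries that stood apart and by 1.70 without those replicates of both tissues, and both times the call was lost. Its adjusted p-values were 0.00559 to 0.117 over all alternatives in edgeR and DESeq2.

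Shifts towards the endosperm included an oleosin and a BAG6-like gene, whose levels declined by a larger factor in embryos. The oleosin gene Solyc06g034040.1.1 had 4221 ± 231, 1239 ± 218, 905 ± 105 and 930.0 ± 285 CPM in embryos at MG, R, R7 and R14, against 3201 ± 342, 1788 ± 33.1, 1758 ± 166 and 2054 ± 599 CPM in endosperms (SD, n = 3 each), a shift of -1.51 ± 0.29 (edgeR adjusted p = 0.00179). The embryo was the higher tissue at MG and the lower one from R on. The BAG6-like gene Solyc01g095320.4.1 had 7121 ± 1526, 1964 ± 426, 1227 ± 341 and 995 ± 489.7 CPM in embryos, against 15602 ± 1754, 10224 ± 2020, 6548 ± 1440 and 7290 ± 1449 CPM in endosperms (SD, n = 3 each), a shift of -1.56 ± 0.41 (edgeR adjusted p = 0.0135). Solyc01g090350.3.1 had 1937 ± 34.0, 365 ± 131, 134 ± 18.2 and 101 ± 34.4 CPM in embryos, against 34776 ± 4497, 16285 ± 2727, 10418 ± 556 and 11250 ± 2044 CPM in endosperms (SD, n = 3 each), a shift of -2.43 ± 0.33 (edgeR adjusted p = 0.000123). For both, levels declined in each tissue and by a larger factor in embryos. Solyc01g090350.3.1 was among the 81 endosperm markers, which summed in over-ripe embryo libraries to 0.71 to 1.49% of their endosperm median. The part of endosperm RNA in the embryo levels of Solyc01g090350.3.1 was not tested. The DNA repair gene Solyc01g105530.3.1 differed, since its endosperm level rose: it had 0.892 ± 0.355, 0.655 ± 0.335, 0.875 ± 0.262 and 0.775 ± 0.320 CPM in embryos, against 4.97 ± 0.693, 14.0 ± 2.82, 16.1 ± 1.06 and 11.2 ± 2.33 CPM in endosperms (SD, n = 3 each), a shift of -1.60 ± 0.40 (edgeR adjusted p = 0.0111), lost without Embryo MG replicate 3 (adjusted p-values of 0.00034 to 0.0623 over all alternatives in edgeR and DESeq2). The XTH gene Solyc07g006870.4.1 shifted by -1.03 ± 0.27 (edgeR adjusted p = 0.0146) and stayed higher in embryos at each stage, a shift at the size threshold that was lost on leaving out any of 7 single libraries. Of 9 photosystem genes found by the search, 4 shifted towards the endosperm, and of 26 LEA and dehydrin genes found, 2 shifted towards the embryo. How many of these genes were tested in this fit was not counted. Over all genes tested in it, 4.04% shifted towards the endosperm and 3.59% towards the embryo.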

How the data were processed

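RNA was sequenced from 84 libraries of tomato seed tissues, 3 per tissue and stage, of which 12 were compared here and 12 of MG and R fruit were added for the change over stages. The authors mapped single-end reads of a BGI platform with Salmon to the transcripts of the SL4.0 tomato genome and deposited estimated counts per gene, without normalization. Of all values, 10.5% were not whole, and counts were rounded before testing. The deposited table holds no normalized or published comparison columns, and no column was left out. Library totals of 20716959 to 21329172 counts give 3 counts a value of 0.141 to 0.145 CPM, computed from library totals.

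For the tests, edgeR 4.0.16 was run under R 4.3.3 with low counts removed by filterByExpr (minimum count 10), TMM factors, a quasi-likelihood fit and, for the pooled comparison, terms for tissue and stage. Fits by stage and for changes between stages had 1 coefficient per tissue and stage, with over-ripe taken as the mean of R7 and R14. P-values were adjusted by Benjamini-Hochberg over all genes tested. Calls required an adjusted p under 0.05 together with a log2 fold change beyond 1 in either direction. Principal components used log2 CPM of genes above 1 CPM. Samples of a group are labelled as biological replicates.

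Same-numbered embryo and endosperm samples deviated together: correlations of their deviations from group means were 0.272, 0.241 and 0.372 at R7 and 0.374, 0.311 and 0.119 at R14, each over 0.1. Correlations of differently numbered samples are not given here, so that pairing was not established. The main fits, with their p-values and standard errors, used no pairing, and a fit with the replicate block was an alternative. Other alternatives were RLE factors, library totals without TMM factors, no filter, DESeq2 1.42.0, a fit of all 84 libraries, a log2 threshold of 2 and leaving out each library. Fits without 2 embryo libraries, and without these and the same-numbered endosperm libraries, were chosen after seeing the data.

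Named genes were, by rule, the 10 with the largest fold change in each direction (called, without overlap, at least 10 CPM), the 5 with the largest share of counts per tissue, up to 5 called members of each list per direction, genes the study names and the 3 with the largest change in each direction between stages, and the text gives those with an annotation or with the clearest values. Lists came from searches of gene descriptions and from GO terms in the study's supplementary tables, which were held in part, since the reference names used here matched no gene identifier of the files. Members and lists were chosen with earlier results of these data known. Genome positions and sequences were not analysed here.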

Additional observations from a re-analysis of the deposited data

Results flagged for a closer look

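In 125 groups of 6 libraries, for the genes named above, 11 had 1 library far from the other 5 by Dixon's criterion. For independent groups of normal values the criterion flags about 1 in 20. These groups share the same 12 libraries, and some genes were named for a large change between stages. The 11 therefore cannot be read against that rate. Solyc01g081590.4.1 had 3.25 CPM in Embryo R7 replicate 1 and 0.335 to 1.14 CPM in the other 5 embryo libraries. SlFUSCA3 (Solyc02g094460.2.1) had 1.03 CPM in Endosperm R14 replicate 3 and 0 to 0.239 CPM in the other 5 endosperm libraries. Solyc03g025720.3.1 had 336 CPM in Endosperm R14 replicate 1 and 175 to 214 CPM in the other 5 endosperm libraries. SlABI4-2 (Solyc03g095977.1.1) had 1.62 CPM in Endosperm R14 replicate 3 and 0.143 to 0.643 CPM in the other 5 endosperm libraries. Solyc03g121180.4.1 had 462 CPM in Endosperm R14 replicate 3 and 0.143 to 2.23 CPM in the other 5 endosperm libraries. Solyc04g064620.4.1 had 12.1 CPM in Endosperm R14 replicate 3 and 5.64 to 7.12 CPM in the other 5 endosperm libraries. Solyc06g034040.1.1 had 2737 CPM in Endosperm R14 replicate 3 and 1570 to 1881 CPM in the other 5 endosperm libraries. Solyc06g048840.3.1 had 474 CPM in Endosperm R14 replicate 3 and 99.0 to 169.7 CPM in the other 5 endosperm libraries. Solyc06g060110.3.1 had 44.1 CPM in Endosperm R7 replicate 3 and 3.19 to 14.1 CPM in the other 5 endosperm libraries. Solyc06g073570.4.1 had 26.0 CPM in Embryo R14 replicate 1 and 0 to 7.30 CPM in the other 5 embryo libraries. Solyc08g062437.1.1 had 605 CPM in Endosperm R14 replicate 1 and 1508 to 1723 CPM in the other 5 endosperm libraries. Of these, Endosperm R14 replicate 3, the endosperm library with the highest sum of embryo markers and of endosperm markers, was the library far from the others in 6. The part of either marker sum in these values was not tested.

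The difference between embryo and endosperm had a different size in over-ripe and in MG fruit for 9 of the genes named above, by the test of the difference in edgeR. Towards the embryo, the log2 difference shifted by 3.53 for Solyc02g092820.4.1, 2.34 for Solyc05g053120.1.1, 2.57 for Solyc06g061100.4.1, 1.28 for Solyc07g062990.2.1. Towards the endosperm, it shifted by -2.43 for Solyc01g090350.3.1, -1.56 for Solyc01g095320.4.1, -1.60 for Solyc01g105530.3.1, -1.51 for Solyc06g034040.1.1, -1.03 for Solyc07g006870.4.1. Against R the same test called no gene, and the difference between both results was not tested.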

How the results depend on the processing

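The counts of called genes over R7 and R14, at R7, at R14 and against MG stayed within 1.5 times under RLE factors, library totals, no filter, DESeq2, the fit of all 84 libraries and the replicate block (6966 over both stages, 1660 against MG). Leaving out 1 library gave 6925 to 7213 calls over both stages, 5578 to 7333 at R7, 5574 to 6116 at R14 and 1242 to 1704 against MG. A log2 threshold of 2 left 3928 calls over both stages, 1619 higher in embryos and 2309 higher in endosperms. The counts of 0 did change. For the change from R7 to R14, DESeq2 gave 1, all 84 libraries 2, leaving out 1 library 0 to 3, leaving out both Embryo R7 replicate 3 and Embryo R14 replicate 1 gave 45, and leaving out these numbers in both tissues gave 16. For over-ripe against R, the replicate block gave 4, DESeq2 53, all 84 libraries 6, leaving out 1 library 0 to 8, leaving out both embryo libraries 33, and leaving out these numbers in both tissues 14. The cause of these changes was not tested. The replicate block changed no other call of a named gene. Library totals without TMM factors moved the median log2 fold change over all genes to 0.13, against 0.03, and the calls to 3623 higher in embryos and 3272 higher in endosperms. No called gene among the named genes changed direction, and changes of direction over all called genes were not counted. Of 62 named genes called, 58 to 62 kept their call without 1 library, 57 without the 2 embryo libraries, 59 without these numbers in both tissues, 61 with RLE factors and 61 with no filter. Genes of the searches had 38 calls without TMM factors and 36 in the fit of all 84 libraries, against 36. For genes at 3 counts or fewer in each library of 1 tissue, depth limits the fold change, and fitted values are not bounds.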
